A study of Homo sapiens with 6 samples.

Results

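The let-7 family was followed across melanoma cells treated with the ferroptosis inducer RSL3 alone or combined with IFN-γ. Its members were taken by name from the deposited table of mature miRNAs: hsa-let-7a-5p, hsa-let-7b-5p, hsa-let-7c-5p, hsa-let-7d-5p, hsa-let-7e-5p, hsa-let-7f-5p, hsa-let-7g-5p, hsa-let-7i-5p and hsa-miR-98-5p, which make 9 of the 1596 miRNAs listed (the prefix hsa for human is left out below). The RSL3 monotreatment group and the group given RSL3 with IFN-γ (the combination group from here on) held 3 small RNA libraries each, all from cells treated for 24 hours. RSL3 inactivates the lipid peroxide-clearing enzyme GPX4, and IFN-γ is a cytokine of activated T cells. Both groups carry RSL3, so the comparison is of IFN-γ added to RSL3. Untreated cells and cells given IFN-γ alone were not analysed here. The labels name the cells A2058, whereas the paper names A375 for the same experiment, and which of these established melanoma lines was sequenced is open. No source says whether the replicates were separate cultures, so the p-values measure only the spread between these libraries.

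let-7 miRNAs are among the most conserved miRNAs of animals. They are cut from hairpin precursors by DROSHA and DICER1, and the RNA-binding proteins LIN28A and LIN28B block this maturation in stem cells and in many tumours. Mature let-7 guides Argonaute to messages that pair with its seed, classically those of the RAS genes, MYC, HMGA2 and LIN28 itself, and high let-7 is a mark of differentiated cells. The members carry the same seed and differ only in the rest of the molecule, as the mature sequences from RefSeq show. They are printed 5′ to 3′, with the seed (bases 2 to 8) in capitals.
let-7a-5p: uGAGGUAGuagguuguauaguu
let-7b-5p: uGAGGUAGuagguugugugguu
let-7c-5p: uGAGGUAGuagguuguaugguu
let-7d-5p: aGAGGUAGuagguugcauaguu
let-7e-5p: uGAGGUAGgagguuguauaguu
let-7f-5p: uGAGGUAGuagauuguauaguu
let-7g-5p: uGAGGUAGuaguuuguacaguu
let-7i-5p: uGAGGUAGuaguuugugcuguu
miR-98-5p: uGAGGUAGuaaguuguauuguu

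All 9 are 22 bases long. Counted from 1 at the 5′ end and written as changes from let-7a-5p, let-7c-5p carries A19G, let-7e-5p carries U9G and let-7f-5p carries G12A. let-7b-5p carries A17G and A19G, and let-7d-5p carries U1A and U16C. let-7g-5p carries G12U and U18C. let-7i-5p is the farthest from let-7a-5p, with G12U, A17G, U18C and A19U, and miR-98-5p carries G11A and A19U. Of the 36 pairs, 4 differ by a single base (let-7a with let-7c, let-7e and let-7f, and let-7b with let-7c). No source used here says how the authors counted a read that matches several members, or how many mismatches they allowed. The values of those 5 members are therefore uncertain one by one. As the mismatches are unknown, the same can hold for the other members, such as let-7g-5p, which is 2 bases from let-7a-5p and from let-7i-5p. Among the 1425 miRNAs of the table that had a RefSeq sequence, 10 had the let-7 seed, and the tenth was miR-4458, with 0 to 10 reads in a library. The GC content of the members, 31.8% (let-7f-5p and miR-98-5p) to 45.5% (let-7b-5p), lay below the median of 52% over the table.

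The members come from hairpins spread over 8 chromosomes (GRCh38, RefSeq coordinates, which GENCODE 29 shares). MIRLET7A1 (chr9:94175957-94176036), MIRLET7F1 (chr9:94176347-94176433) and MIRLET7D (chr9:94178834-94178920) form a cluster on the plus strand, in an intron of the long non-coding RNA AL158152.2. MIRLET7A2 (chr11:122146522-122146593, minus strand) lies in an intron of MIR100HG and MIRLET7C (chr21:16539828-16539911, plus strand) in one of MIR99AHG. MIRLET7A3 (chr22:46112749-46112822) and MIRLET7B (chr22:46113686-46113768) overlap exons of the non-coding MIRLET7BHG. The others lie in introns: MIRLET7E (chr19:51692786-51692864, plus strand) in SPACA6, MIRLET7G (chr3:52268278-52268361, minus strand) in WDR82, and MIRLET7I (chr12:62603686-62603769, plus strand) in the non-coding AC048341.1. MIRLET7F2 (chrX:53557192-53557274) and MIR98 (chrX:53556223-53556341) share introns of HUWE1 on the minus strand. let-7a-5p can therefore come from 3 hairpins and let-7f-5p from 2, and the table gives 1 value for each.

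Each library held 4383940 to 6513382 counted reads. Levels below are CPM, the reads of a miRNA relative to the library total, scaled by TMM factors, which were 0.861, 0.913 and 0.877 for the RSL3 libraries and 0.944, 1.33 and 1.15 for the combination libraries. The median log2 fold change of all 758 miRNAs tested was -0.038 with these factors, 0.33 with library totals alone and -0.13 with upper-quartile factors. Of the 7 melanocyte and melanoma markers looked for, 6 were in the table, with miR-211-5p at 269.9 to 387.7 CPM and miR-204-5p at 161.5 to 344.5 CPM. miR-514a-3p was at 14.5 to 76.0 CPM, while miR-506-3p, miR-508-3p and miR-509-3p reached at most 2.98 CPM. The muscle marker miR-1-3p (155.7 to 1281 CPM), the blood marker miR-451a (74.7 to 318.5 CPM) and the liver marker miR-122-5p (29.1 to 173.9 CPM) were also present. The other blood markers listed, miR-142-5p, miR-223-3p and miR-150-5p, reached at most 6.04 CPM, so the blood sum below is mostly miR-451a. The other muscle marker, miR-133a-3p, was at 13.7 to 45.3 CPM. The summed melanocyte list was 577.4 to 744.0 CPM in the RSL3 group and 489.5 to 578.2 CPM in the combination group. The muscle sum was 170.2 to 1326 CPM against 197.0 to 271.5 CPM, the blood sum 99.8 to 163.9 against 78.3 to 324.1 CPM, and the liver value 29.1 to 90.4 against 68.3 to 173.9 CPM. The epithelial sum was 16.1 to 30.2 against 10.3 to 17.6 CPM and the neuronal marker miR-124-3p 0.197 to 16.5 against 0.483 to 3.87 CPM. No listed marker was at 0 in all libraries, and whether other cells or their RNA have a part in the let-7 values was not tested.

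let-7i-5p was by far the most abundant member and, over the 6 libraries, the third most abundant of the 1596 miRNAs. In the RSL3 group it measured 69304, 71846 and 76701 CPM, and in the combination group 56164, 31141 and 38238 CPM. Every combination library was below every RSL3 library. let-7a-5p, ranked 13, measured 10953, 7356 and 12269.8 CPM in the RSL3 group and 10558, 11714 and 14562 CPM in the combination group, with overlapping groups. let-7b-5p, ranked 18, measured 5747, 7244 and 7059 CPM against 10464, 8394 and 11054 CPM. All 3 combination libraries were above the 3 RSL3 libraries. let-7g-5p, ranked 21, measured 10380 CPM, 6667 CPM and 11007 CPM against 6085, 5114 and 6264 CPM, again with no overlap but in the opposite direction.

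let-7f-5p, ranked 35, measured 5316, 2850.4 and 4780.4 CPM in the RSL3 group and 3124, 3391 and 4412 CPM in the combination group. RSL3 replicate 2 was the lowest of the 6 libraries for let-7f-5p, as it was for let-7a-5p. let-7c-5p, ranked 59, measured 1496, 1699 and 1786 CPM against 1781, 1936 and 1855 CPM, and let-7e-5p, ranked 82, measured 1025, 698 and 1075 CPM against 845, 971 and 1144 CPM. Both overlapped between groups. The least abundant members were let-7d-5p, ranked 112, with 396, 328 and 438 CPM against 403, 469 and 504 CPM, and miR-98-5p, ranked 126, with 468, 320 and 398 CPM against 299, 297 and 286 CPM. For miR-98-5p every combination library was below every RSL3 library, and the SD was 73.8 CPM in the RSL3 group and 7.31 CPM in the combination group (n = 3 each).

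**Figure D1:**
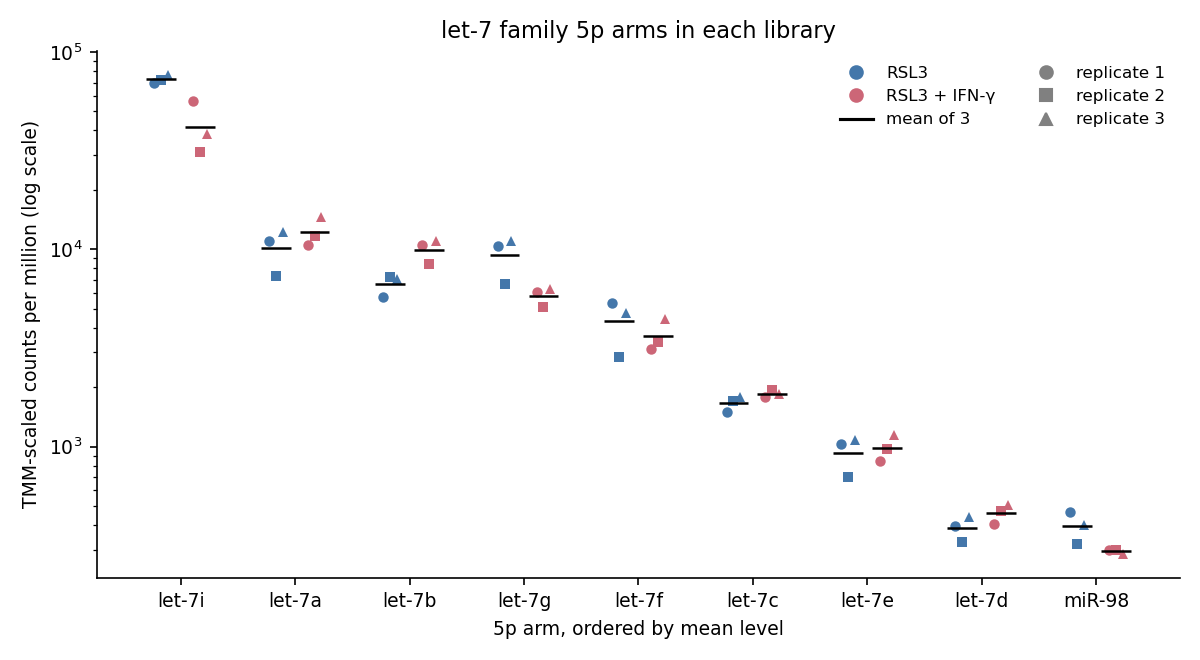
Levels of the 9 let-7 family members in each library. The vertical axis is TMM-scaled CPM on a log scale, points are libraries (blue RSL3, red RSL3 + IFN-γ, shapes give replicate numbers) and black lines are group means of 3; let-7i-5p lies above all other members in all 6 libraries, and its 2 groups do not overlap.

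Taken by their mean over the 6 libraries, the members ran in the order let-7i, let-7a, let-7b, let-7g, let-7f, let-7c, let-7e, let-7d and miR-98. The ranges over the libraries did not overlap at 4 steps of this order: let-7i above let-7a, let-7f above let-7c, let-7c above let-7e and let-7e above let-7d. let-7a-5p was above let-7b-5p, and let-7g-5p above let-7f-5p, in 6 of 6 libraries, but their ranges overlapped. The order of let-7b-5p and let-7g-5p differed between the groups, with let-7b-5p higher in 4 of 6 libraries. These were every combination library (8394 to 11054 CPM against 5114 to 6264 CPM) and RSL3 replicate 2. let-7d-5p exceeded miR-98-5p in 5 of 6.

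The first question was whether adding IFN-γ to RSL3 changed the level of any member. With edgeR's quasi-likelihood test over all 758 miRNAs and Benjamini-Hochberg adjustment, 0 of the 9 members passed an adjusted p of 0.05, where 36 miRNAs, 4.75% of those tested, did so (82, or 10.8%, with a replicate block, again without a member). DESeq2 and limma also called 0 of the 9 (12.5% and 4.22% of all miRNAs). At an unadjusted p under 0.05, 3 members passed, and 25.9% of all miRNAs did. The groups did not overlap for 4 of the 9 members and for 29.8% of all miRNAs. The fitted log2 fold change was above 0 for 5 members and below 0 for 4, with a median of 0.081 over the members. Both depend on the setting. The median was 0.47 with library totals alone (6 above 0, 3 below) and -0.016 with upper-quartile factors (4 above, 5 below). With the GC trend removed it was 0.47 (7 above, 2 below). In that fit without a replicate block, 5 of the 9 had an unadjusted p under 0.05 and 0 were called by edgeR. Of all 679 miRNAs fitted there, 150 had such a p and 13 were called. Without RSL3 replicate 2 the median over the members was -0.11 and without combination replicate 3 -0.053 (4 above, 5 below in each).

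let-7i-5p had the largest negative log2 fold change, -0.80 (SE 0.257, 95% interval -1.36 to -0.23, adjusted p = 0.0890, edgeR). let-7g-5p followed with -0.68 (SE 0.248, interval -1.23 to -0.13, adjusted p = 0.126, edgeR). let-7b-5p lay at the other end with 0.58 (SE 0.221, interval 0.087 to 1.07, adjusted p = 0.141, edgeR). These were the 3 members with an unadjusted p under 0.05. miR-98-5p was at -0.43 (interval -0.93 to 0.072) and let-7f-5p at -0.24 (interval -0.85 to 0.36). let-7a-5p was at 0.27 (interval -0.29 to 0.83), let-7d-5p at 0.24 (interval -0.25 to 0.74), let-7c-5p at 0.16 (interval -0.30 to 0.62) and let-7e-5p at 0.081 (interval -0.47 to 0.63). For these 6 the adjusted p ran from 0.261 to 0.857 (edgeR), and every interval includes 0 and reaches 0.62 or more in size on 1 side. Changes of up to that size on that side, in let-7a, c, d, e and f and miR-98, could not be told from none. Single libraries moved several of them by over 1.5 times. Without RSL3 replicate 2, let-7a-5p was at 0.063, let-7d-5p at 0.12, let-7e-5p at -0.11 and let-7f-5p at -0.49. Without RSL3 replicate 1, let-7c-5p was at 0.098, let-7f-5p at -0.065 and miR-98-5p at -0.28. Without combination replicate 3, let-7a-5p was at 0.11, let-7d-5p at 0.15, let-7e-5p at -0.053 and let-7f-5p at -0.42, and without combination replicate 1 let-7e-5p was at 0.17 and let-7f-5p at -0.16. let-7e-5p was also at 0.16 without RSL3 replicate 1 and without RSL3 replicate 3.

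Single libraries and settings decided whether a member was called. let-7i-5p fell by 1.08 (adjusted p = 0.00545, edgeR) without combination replicate 1, the combination library with the highest let-7i-5p, where 11.7% of all miRNAs were called. With no filter on low counts it fell by 0.78 (adjusted p = 0.0429, edgeR, 6.64% of all called). Over its 16 alternatives its adjusted p ran from 0.00545 to 0.271. let-7g-5p fell by 0.89 (adjusted p = 0.0467, edgeR) without RSL3 replicate 2, the RSL3 library with the lowest let-7g-5p (6.74% of all called), and its adjusted p ran from 0.0467 to 0.649. let-7b-5p rose by 0.93 (adjusted p = 0.0277, edgeR) with library totals alone, where the median of all miRNAs was 0.33 and 9.37% were called, and its adjusted p ran from 0.0277 to 0.438.

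**Figure D2:**
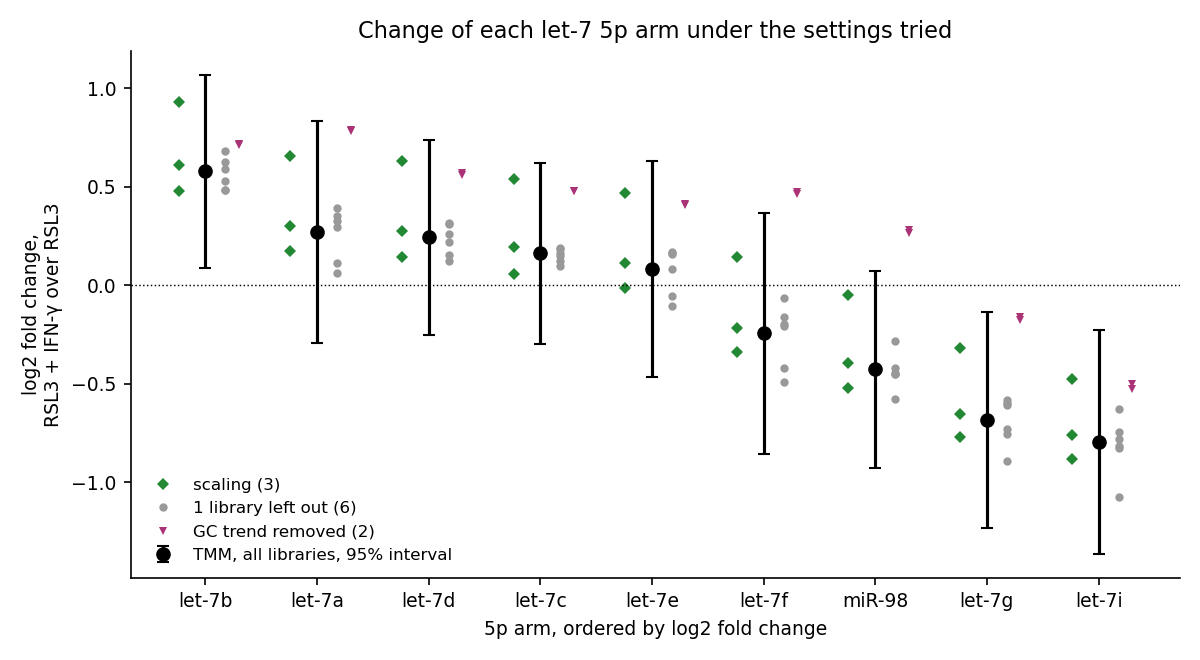
Log2 fold change of each member, RSL3 + IFN-γ over RSL3. Points are edgeR estimates, bars are 95% intervals, and the smaller marks are 3 other scalings (green), the 6 fits that leave out 1 library (grey) and 2 with the GC trend removed (purple); the estimates run from -0.80 (let-7i) to 0.58 (let-7b), and none of these 9 passed an adjusted p of 0.05.

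Together the 9 members took 9.05%, 9.04% and 10.1% of all counted reads in the RSL3 libraries (9.40% ± 0.629, SD, n = 3) and 8.47%, 8.43% and 9.04% in the combination libraries (8.64% ± 0.341, SD, n = 3). RSL3 replicate 2 and combination replicate 3 stood at the same share of 9.04%. The exact 95% interval of the first of these shares, 9.02% to 9.07%, covers counting error only, and those of the others were as narrow. On the TMM scale the family summed to 105085, 99009 and 115515 CPM against 89723, 63428 and 78319 CPM, without overlap, a difference of -0.48 on the log2 scale. With library totals alone the difference was -0.12, so the size of the difference in the family sum depends on the scaling. No test was run on this sum.

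The second question was which members made up the family in each library, a measure that needs no scaling between libraries. The share of let-7i-5p in the family reads was 66.0%, 72.6% and 66.4% in the RSL3 group (68.3% ± 3.70, SD, n = 3) and 62.6%, 49.1% and 48.8% in the combination group (53.5% ± 7.87, SD, n = 3), lower by 14.8 points. Combination replicate 1 lay closer to the RSL3 libraries than to the other two combination libraries. let-7a-5p had the second largest mean share in both groups, with 10.4%, 7.43% and 10.6% against 11.8%, 18.5% and 18.6%. let-7b-5p held 5.47%, 7.32% and 6.11% against 11.7%, 13.2% and 14.1%, a mean 2.06 times as high. For both of these, and for let-7i-5p, the groups did not overlap.

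The share of let-7c-5p was 1.56% ± 0.147 (SD, n = 3) in the RSL3 group and 2.47% ± 0.541 in the combination group, and that of let-7d-5p 0.363% ± 0.0268 and 0.610% ± 0.148, each without overlap. The shares of let-7g-5p (8.71% and 7.61%), let-7f-5p (4.03% and 4.82%), let-7e-5p (0.870% and 1.31%) and miR-98-5p (0.371% and 0.389%) overlapped. Thus 4 shares were higher without overlap, 1 was lower and 4 overlapped. No rate over all miRNAs was computed for such shares, and in CPM the groups did not overlap for 29.8% of all miRNAs. For the 5 without overlap the exact two-sided permutation p was 0.1, the smallest that 3 libraries against 3 can give, and 0.18 after adjustment over the 9 shares, so this design cannot place them under 0.05. Shares of a whole are tied to each other, and a lower share of let-7i-5p, the largest in every library, raises the sum of the others. let-7a-5p was also summed with the 3 members a single base from it (let-7c, let-7e and let-7f), which gave 15.9% ± 2.81 against 24.9% ± 5.81 (SD, n = 3 each).

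**Figure D3:**
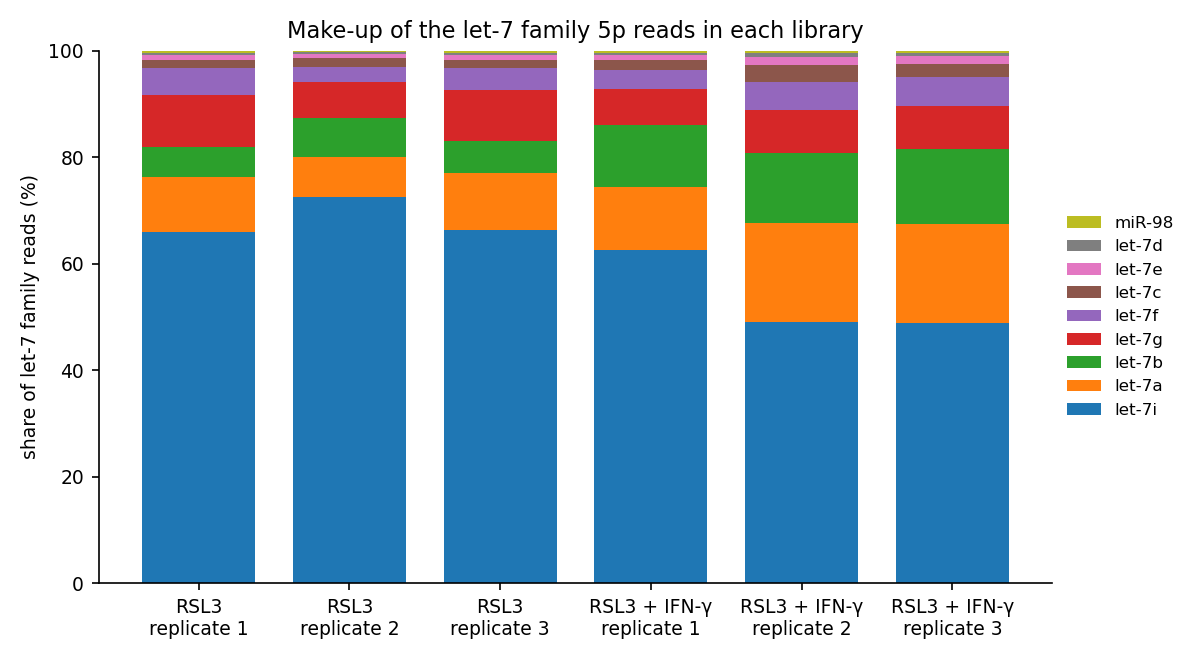
Make-up of the let-7 family in each library. Each bar is 1 library and its segments are the percent of the reads of the 9 members; the let-7i-5p segment covers 66.0% to 72.6% in the RSL3 libraries and 48.8% to 62.6% in the RSL3 + IFN-γ libraries, while let-7a-5p and let-7b-5p take more in the latter.

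Ratios to let-7a-5p within a library show the members against a common partner. They were chosen after values of these data were seen and carry no test. All have let-7a-5p, with a log2 fold change of 0.27, as denominator, so they are tied to each other. No rate of overlap over all miRNAs was computed for such ratios, and in CPM the groups did not overlap for 29.8% of all miRNAs. The reads of let-7i-5p per read of let-7a-5p were 6.33, 9.77 and 6.25 in the RSL3 group and 5.32, 2.66 and 2.63 in the combination group. For let-7g-5p they were 0.948, 0.906 and 0.897 against 0.576, 0.437 and 0.430, so that let-7g-5p was nearly level with let-7a-5p in each RSL3 library and well under it in each combination library. let-7f-5p, a single base from let-7a-5p, gave 0.485, 0.387 and 0.390 against 0.296, 0.289 and 0.303. The miR-98-5p ratio was 0.0427, 0.0435 and 0.0325 against 0.0283, 0.0254 and 0.0196.

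The let-7e-5p ratio also lay lower without overlap, but by little (0.0920 ± 0.00387 against 0.0805 ± 0.00222, SD, n = 3 each). In CPM the mean of let-7e-5p was not lower (933 against 987), and let-7e-5p and let-7f-5p overlapped between groups. The ratios of let-7b-5p, let-7c-5p and let-7d-5p to let-7a-5p overlapped. Set against each other, let-7b-5p per read of let-7i-5p was 0.0829, 0.101 and 0.0920 in the RSL3 group and 0.186, 0.270 and 0.289 in the combination group, a difference of 1.41 on the log2 scale. let-7f-5p and let-7d-5p share the chromosome 9 cluster, although let-7f-5p can also come from chromosome X, and their ratio overlapped between groups (13.4, 8.68 and 10.9 against 7.76, 7.24 and 8.76).

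**Figure D4:**
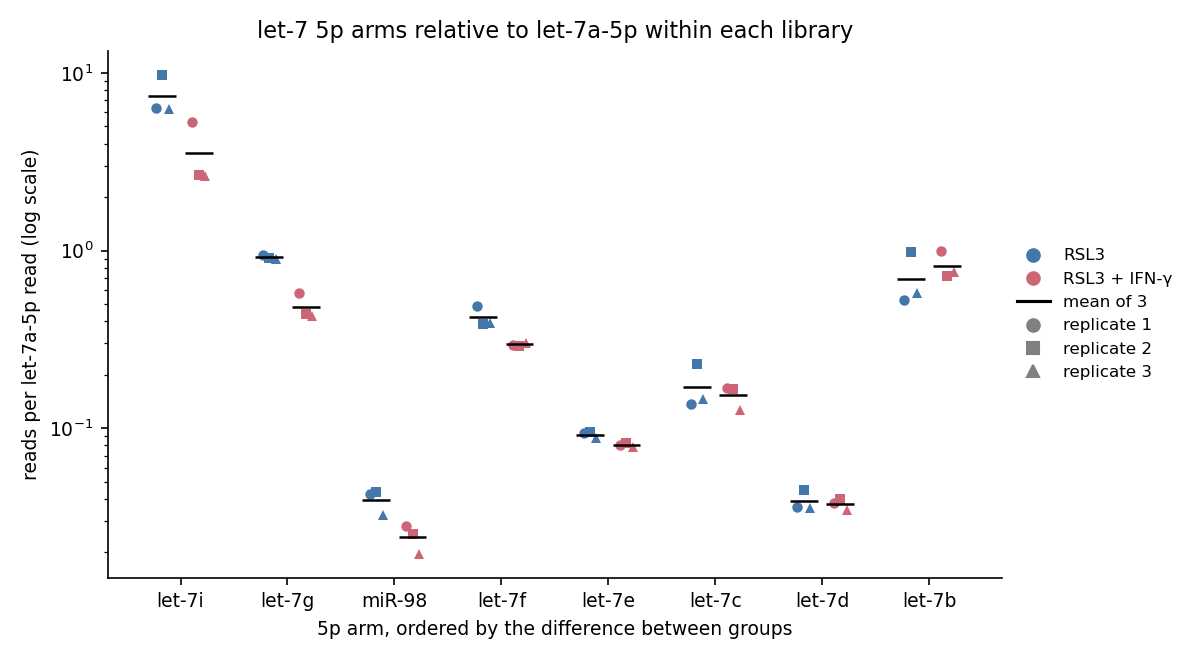
Reads of each member per let-7a-5p read within a library, on a log scale, so that all ratios share the same denominator. Points are libraries (blue RSL3, red RSL3 + IFN-γ), black lines are group means of 3, and members are ordered by the difference between groups; let-7i, let-7g, miR-98, let-7f and let-7e do not overlap between groups, while let-7c, let-7d and let-7b do.

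Sorted by sequence after these values were seen, and so with no test, the members fell into separate ranges of log2 fold change. The 5 that keep the let-7a bases at positions 11 and 12 (let-7a to let-7e) lay between 0.081 and 0.58. The 4 that are changed there (let-7f with G12A, let-7g and let-7i with G12U, and miR-98 with G11A) lay between -0.80 and -0.24. The split was drawn from these counts, and other scalings move all members nearly alike, so refits of the same counts say nothing of its stability. The ranges overlapped in the 2 settings that removed the trend of each library with GC content, where let-7f-5p moved to 0.47 and 0.46 and miR-98-5p to 0.28 and 0.26. let-7i-5p (-0.50 without a replicate block) and let-7g-5p (-0.17) stayed below 0 there, and let-7a-5p (0.79) and let-7b-5p (0.71) above. Whether GC content has a part in the fitted differences was not tested beyond those 2 fits.

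The 3p arms are the strands that Argonaute usually discards. All 11 listed 3p arms of these hairpins passed the filter on low counts, and 0 of them were called by edgeR, DESeq2 or limma, where 4.75% of all miRNAs passed edgeR's test. At an unadjusted p under 0.05 there was 1 of the 11, against 25.9% of all miRNAs. Their log2 fold changes were above 0 for 7 and below 0 for 4. The most abundant was let-7d-3p with 108.5 ± 14.8 CPM in the RSL3 group and 96.7 ± 9.13 CPM in the combination group (SD, n = 3 each), with -0.17 as its log2 fold change. let-7a-3p had 84.2 ± 39.7 and 92.9 ± 24.8 CPM (0.14). let-7b-3p (0.029), let-7a-2-3p (0.64) and let-7e-3p (0.28) reached at most 32.1 CPM.

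The groups did not overlap for 1 of the 11 3p arms, against 29.8% of all miRNAs. That arm was let-7g-3p, named here after its values were seen. It measured 8.48, 11.6 and 8.58 CPM in the RSL3 group and 20.8, 12.1 and 18.9 CPM in the combination group, while let-7g-5p of the same hairpin was lower there. Its log2 fold change was 0.85 (SE 0.320, adjusted p = 0.137, edgeR). The let-7g and let-7i 3p arms are shown because their hairpins had the largest differences between arms, with the seed in capitals.
let-7g-3p: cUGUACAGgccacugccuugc
let-7i-3p: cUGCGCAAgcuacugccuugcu

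The number of 5p reads per 3p read compares both arms of a hairpin within a library. It was read for the 7 hairpins that are the only source of their 5p arm. For let-7g it was 1223, 573 and 1283 in the RSL3 group and 293, 422 and 332 in the combination group, and the groups did not overlap. The log2 difference was -1.48 (SE 0.421, 95% interval -2.39 to -0.57, unadjusted p = 0.00409, adjusted p = 0.104, limma over 181 hairpins). For let-7i the ratio was 11708, 12354 and 8591 against 7042, 3797 and 3076, also without overlap, with a log2 difference of -1.30 (SE 0.448, interval -2.27 to -0.33, adjusted p = 0.123, limma). Its 3p arm gave only 26 to 77 reads in a library. The ratio was lowest for let-7d in every library, at 4.11, 3.15 and 3.51 in the RSL3 group and 4.45, 5.06 and 4.70 in the combination group.

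The let-7d groups did not overlap either, with a log2 difference of 0.41 (interval -0.23 to 1.04, adjusted p = 0.442, limma). The differences for let-7b (0.54), let-7c (0.76), let-7e (-0.17) and miR-98 (-0.49) had intervals that include 0. In all, 0 of the 7 hairpins passed an adjusted p of 0.05 in limma, where 4 of 181, or 2.21%, did, and 2 of the 7 had an unadjusted p under 0.05, against 17.7% of all. No overlap was seen for 3 of the 7 and for 22.7% of all hairpins. Without RSL3 replicate 2 let-7g passed (-1.85, adjusted p = 0.0477, limma, 1.64% of all hairpins called), and without combination replicate 1 let-7i did (-1.64, adjusted p = 0.0334, limma, 7.53% of all).

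Several let-7 hairpins are transcribed together with miR-99, miR-100 and miR-125 hairpins. Of 14 entries listed as such neighbours or as close in seed, 11 passed the filter, and miR-4458, miR-4763-3p and miR-4763-5p had at most 10 reads in a library. miR-4500 and miR-202-3p were not analysed here. edgeR, DESeq2 and limma called 0 of the 11 (4.75% of all miRNAs in edgeR), and 1 of the 11 had an unadjusted p under 0.05 (25.9% of all). The log2 fold change was above 0 for 4 and below 0 for 7. miR-100-5p, from the host of MIRLET7A2, measured 45967 ± 10229 CPM in the RSL3 group and 40556 ± 6877 CPM in the combination group (SD, n = 3 each), and its log2 fold change was -0.18 (interval -0.72 to 0.36). miR-99a-5p, from the host of MIRLET7C, measured 6168 ± 837 and 5465 ± 1291 CPM (-0.17). miR-99b-5p (-0.12) and miR-99b-3p (-0.0062), neighbours of let-7e, and miR-125b-5p (0.12) overlapped between groups as well. The groups did not overlap for 2 of the 11, named after their values were seen, against 29.8% of all miRNAs. miR-125b-2-3p, from the host of MIRLET7C, had 158.0 ± 12.2 and 124.5 ± 6.13 CPM (-0.34, adjusted p = 0.317, edgeR). miR-125a-3p, next to let-7e, had 26.9 ± 2.11 and 44.9 ± 11.9 CPM (0.74, adjusted p = 0.132, edgeR), and without combination replicate 1, where 11.7% of all miRNAs were called, it passed (0.93).

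Likeness of profile was measured as the root mean square difference of log2 CPM, centred on each miRNA's mean over the 6 libraries, against 205 miRNAs outside the family with a mean of at least 100 CPM. Nearest to let-7i-5p, which is both the most abundant member and the one with the lowest log2 fold change, were miR-21-5p (0.152), miR-30d-5p (0.173) and miR-10b-5p (0.177). Their log2 fold changes were -0.60, -0.91 and -0.92 (adjusted p = 0.223, 0.0750 and 0.0750, edgeR). Nearest to let-7b-5p were miR-130b-3p (0.138), miR-17-3p (0.143) and miR-30a-3p (0.169), with log2 fold changes of 0.50, 0.80 and 0.38. Within the family the nearest pairs were let-7a with let-7e (0.105), let-7d with let-7e (0.121) and let-7a with let-7d (0.123), and the farthest was let-7b with let-7i (0.738).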

How the data were processed

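Small RNA libraries (3 with RSL3, 3 with RSL3 and IFN-γ) were grouped by the treatment in their labels. The table deposited by the authors gives raw read counts per mature miRNA, which were used. It also gives a signal, for which the authors scaled the counts to library totals of their own (the deposited counts sum to 1.03 to 1.16 times these), and a log2 fold change, a linear fold and a p-value per miRNA. Those were not used. No other per-sample column was left out. Bowtie 1.1.1, bcl2fastq, edgeR and GRCh38 appear in the submitters' processing notes, without roles. The miRBase release was not given in the sources used here, nor was the handling of mismatches and of reads with several matches. The labels name a small RNA kit and the paper a directional RNA kit.

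Counts were fitted with edgeR 4.0.16 in R 4.3.3 (quasi-likelihood test, TMM factors, two-sided). The filter asked for a count of 10 and a total of 15 and kept 758 of 1596 miRNAs. Adjustment was by Benjamini-Hochberg over all tested, with calls at 0.05. Alternatives were DESeq2 1.42.0, limma 3.58.1 (prior count 2), other scalings and filters, leaving out each library, a replicate block and removal of each library's GC trend (679 miRNAs, 89.6%, had a sequence). Arm ratios took 0.5 added reads per arm, needed means of 10 reads or more for both arms, and were tested with limma. Shares were tested by exact permutation (scipy 1.17.1). The tests across all miRNAs or hairpins were first tested on simulated data. Exact intervals are Clopper-Pearson at 95% and cover counting error only.

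The rule named all 9 members, the 5 most abundant 3p arms and neighbours with any that passed, and the 3 nearest profiles of the most abundant member and of those with the largest rise and fall. Members and lists were chosen with earlier results of these data known. Titles number the replicates 1 to 3 in both groups without saying what a number stands for. Across miRNAs, deviations from the group mean correlated between libraries of the same number at 0.227, 0.217 and 0.207. Correlations between libraries of unlike number were not computed, so these values cannot show that the numbers mark pairs. The numbers were taken as a possible pairing, and the replicate block was fitted as an alternative. The main edgeR fit, the main arm ratio fit and the share tests were unpaired. Between libraries the chi-square per degree of freedom was at least 125, so no library was a copy.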

Additional observations from a re-analysis of the deposited data

How the results depend on the processing

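The replicate block changed no call among the 9 members, the 3p arms, the neighbours or the arm ratios (0 called in each with the pairing, as without it), while over all miRNAs it raised the calls from 36 to 82. Calls over all miRNAs were 71 with library totals alone, 106 with no filter on low counts, 95 with DESeq2, 13 with the GC trend removed and 0 without RSL3 replicate 1. With library totals alone 1 member (let-7b-5p) and 1 3p arm (let-7g-3p) were called and the family sum differed by -0.12. With no filter on low counts 1 member (let-7i-5p) was called. Leaving out single libraries gave 0 to 1 members, 0 to 1 neighbours, 0 to 0 3p arms and 0 to 1 arm ratios called, and family differences of -0.59 to -0.34. Directions turned with library totals alone for let-7f-5p (0.14), let-7d-3p (0.21), miR-100-5p (0.21), miR-99b-5p (0.25), miR-99a-5p (0.18) and miR-99b-3p (0.38). They turned with upper-quartile factors for let-7e-5p (-0.016) and let-7b-3p (-0.053), and with the GC trend removed for let-7f-5p (0.47, and 0.46 with the block) and miR-98-5p (0.28 and 0.26). miR-99b-3p was at 0.026 with relative log expression factors and with DESeq2, at 0.013 with no filter and at 0.012 with a filter at a mean of 10 CPM. Over the libraries left out, let-7e-5p ran from -0.11 to 0.17, let-7a-3p from -0.21 to 0.44, let-7b-3p from -0.14 to 0.18, miR-99b-3p from -0.11 to 0.12 and the let-7e arm ratio from -0.35 to 0.034. Other than in the settings named here and in the calls given with the results, the members kept their direction and side of the threshold. The filter at 10 CPM left 6 of 11 3p arms, and let-7f-2-3p had no sequence for the GC fits. Depth limits the 3p arms, such as that of let-7i with 26 to 77 reads in a library, whereas each member had at least 1238 reads in every library. The cause of these changes was not tested.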
